A study of Mus musculus with 24 samples.

Results

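Trp53, which encodes the tumour suppressor p53, and Mdm2, Mdm4 and Ppm1d, which encode its feedback regulators, were followed through all 12 groups of the organoid series. The 4 genes were chosen by name and matched by symbol to the Ensembl identifiers of both count tables, and all 4 were found among the 45706 identifiers of each table. All 4 also passed the filter on low counts in every fit.

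p53 is a transcription factor that is held at a low protein level in unstressed cells. Mdm2 is the ubiquitin ligase that marks p53 for degradation, and its gene is itself switched on by p53, which closes a negative feedback loop. Mdm4 is a relative of Mdm2 that binds Mdm2 and masks the activation domain of p53. Ppm1d encodes the phosphatase Wip1, which removes activating phosphates from p53 and from the kinases that act on it, and is likewise a p53 target. Oncogene signalling can raise p53 protein through Arf, an inhibitor of Mdm2, and much of the control of p53 lies in protein stability, which RNA counts do not show.

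Organoids are epithelial cultures grown in gel from intestinal crypts, here derived from C57BL/6N mice, either from small intestine (SI) or from colon (COL). All of them carried Villin::CreERT2, a Cre recombinase expressed from the Villin promoter of intestinal epithelium and activated by 4-hydroxytamoxifen (4-HT). The genotypes were BraffloxV600E/+ (BRAF), Trp53LSL-R172H/+ (p53) and both together (BRAFp53), each heterozygous. In the off state the organoids had received ethanol for 24 h, which left wild-type Braf expressed from the floxed allele and R172H silenced by a loxP-flanked stop cassette. In the on state they had received 4-HT for 24 h, at 3.5 µM in COL and 0.5 µM in SI, and RNA was isolated on day 3 in COL and on day 8 in SI, so that tissue, dose and day cannot be told apart. The 12 groups held 2 libraries each. In either tissue a genotype was represented by a single donor culture, so that genotype and culture cannot be told apart either, and the p-values measure the spread between libraries of 1 culture, which may be technical.

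Library totals, in units of 1e6 counts, were 51.2 to 78.2 in COL and 44.4 to 68.2 in SI. All 6 epithelial markers were present in all 24 libraries, and 11 stromal, endothelial and immune markers summed to 1.63 to 14.6 CPM (counts per 1e6 counts, with library sizes scaled by TMM). In the COL libraries Car1 was present, whereas Hoxb13 and Hoxd13 were at or near 0 throughout. The COL BRAF culture held Gata4, a transcription factor of the small intestine, at 32.1 to 49.4 CPM, against 0.293 to 2.67 CPM in the other COL cultures. Sis, the sucrase of small intestinal enterocytes, was likewise higher in COL BRAF (197 to 444 CPM) than in the other COL cultures (9.91 to 139 CPM), while Lyz1, a Paneth cell gene, was lower (229 to 283 against 704 to 1754 CPM). The library SI BRAF on replicate 1 held 770 counts of Xist, the RNA of the inactive X chromosome, against 8 in replicate 2 and 12 and 27 in the off libraries of this culture, which expressed the Y-linked Ddx3y at 32.8 to 40.3 CPM. The SI p53 and SI BRAFp53 cultures held Xist at 115 to 166 CPM and Ddx3y at 0 to 0.0650 CPM, as female cultures would. The COL cultures held Ddx3y at 45.9 to 64.8 CPM and Xist at up to 0.0395 CPM, as male cultures would. In p53 and BRAFp53, sex therefore cannot be told apart from tissue either. Because of the Xist counts in SI BRAF on replicate 1, results on the 4 genes and the counts over lists in SI BRAF are also given without that library. The single genes of the lists are given only with it.

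The 4 genes lie on GRCm38 (mm10) at chr11:69580359-69591873 (Trp53, ENSMUSG00000059552, + strand), chr10:117688875-117710758 (Mdm2, ENSMUSG00000020184, - strand), chr1:132959484-133030561 (Mdm4, ENSMUSG00000054387, - strand) and chr11:85311244-85347066 (Ppm1d, ENSMUSG00000020525, + strand), by GENCODE M21. Their merged exons span 4045 bases in Trp53, 5083 in Mdm2, 14798 in Mdm4 and 3173 in Ppm1d. No exon of another annotated gene overlapped theirs. The annotated pseudogenes Trp53-ps and Mdm4-ps held at most 8 and 2 counts in any library.

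The allele that separates on from off in the p53 and BRAFp53 cultures changes codon 172 of Trp53. In the 390-codon reading frame of Trp53 this codon lies in exon 5 of 11, at chr11:69588511-69588513, and reads CGC, for arginine, in the reference. The 387-codon frame, which starts further downstream, has CAC at its codon 172, so the allele's numbering follows the longer frame. The reference stretch around the codon, chr11:69588490-69588534 on the + strand, is shown because this codon is what the recombined allele changes, to one for histidine. It was read from the GENCODE M21 transcript and has codon 172 in capitals.
Trp53 codon 172: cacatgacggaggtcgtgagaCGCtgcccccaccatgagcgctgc

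The RefSeq promoter windows of the 4 genes (GRCm38.p6, 250 bases before to 50 bases after a start site, 2 windows for Mdm4) were searched on both strands for the p53 half-site, an E-box (CACGTG), a CRE (TGACGTCA), an AP-1 site (TGANTCA) and an ETS site (CCGGAA). The p53 half-site was found once each in Trp53, Mdm2 and Ppm1d, and in 8.36% of 32851 promoters of the same length. The known p53-responsive promoter of Mdm2 lies in its first intron and outside this window. The stretches around the half-sites are shown on the strand of the gene, with the half-site in capitals, because Mdm2 and Ppm1d are known as p53 targets and Trp53 encodes p53 itself. The first bases of the half-sites lie at -75, -186 and -132 from the start sites, in chr11:69580260-69580317 (Trp53, + strand), chr10:117710911-117710968 (Mdm2, - strand) and chr11:85311098-85311155 (Ppm1d, + strand).
Trp53: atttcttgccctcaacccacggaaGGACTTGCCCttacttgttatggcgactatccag
Mdm2: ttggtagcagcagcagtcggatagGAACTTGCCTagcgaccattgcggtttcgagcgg
Ppm1d: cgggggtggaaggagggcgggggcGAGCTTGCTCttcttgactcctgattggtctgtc

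Of the other motifs, Ppm1d held a CRE at -85, which 1.79% of all promoters hold, Trp53 an E-box at 10 (7.15% of promoters), and Mdm4 an AP-1 site at -134 of its first window (7.81%). An ETS site, found in 14.9% of promoters, lay at -7 in Mdm2 and at 21 in the first window of Mdm4. None of these matches overlapped a half-site. They are matches of letters and not measured binding.

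Per length, Trp53 was the most abundant of the 4 transcripts in every library. Over the 24 libraries Trp53 ranged from 34.6 to 101.9 CPM per kilobase of exon (median 52.3), Mdm2 from 4.54 to 12.8 (median 6.82), Mdm4 from 2.47 to 4.68 (median 3.42) and Ppm1d from 0.975 to 2.84 (median 1.55). Ppm1d rested on 148 to 553 counts per library and Trp53 on 5608 to 31610, and Ppm1d had the widest error of the 4.

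**Figure D1:**
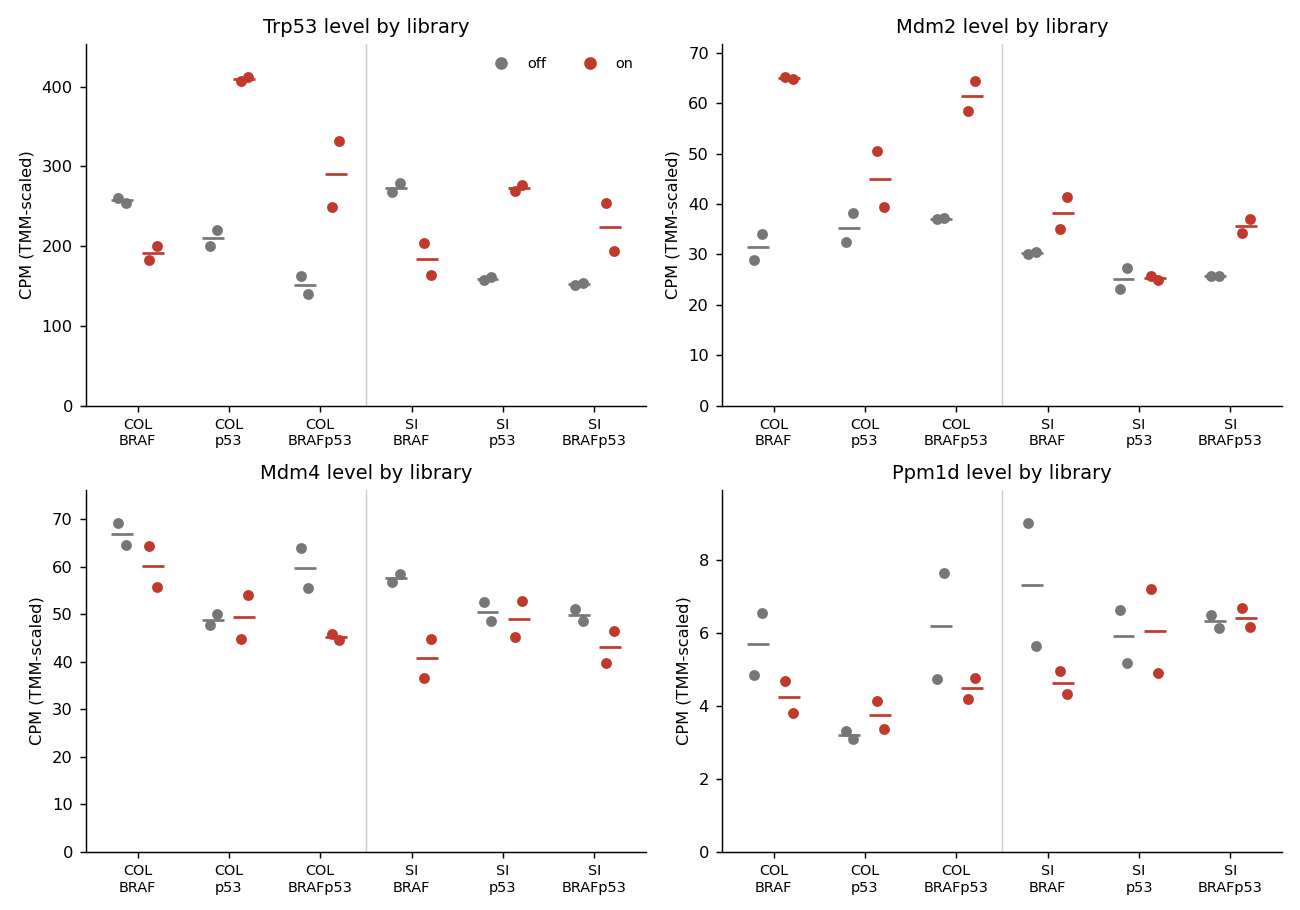
Levels of Trp53, Mdm2, Mdm4 and Ppm1d in CPM (TMM-scaled, axes from 0) in the 24 libraries, by tissue and genotype. Points are libraries, bars are means of 2, grey is off and red is on. Trp53 is higher on than off in the 4 arms with the Trp53 allele and lower in both BRAF arms, and Mdm2 reaches its highest levels in COL BRAF on and COL BRAFp53 on.

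Trp53 moved in opposite directions in the 2 kinds of arm. Its RNA was higher in the on libraries wherever the Trp53LSL-R172H allele was present, by 1.44- to 1.92-fold, and lower wherever BRAFV600E was induced alone, to 0.740 of the off level in COL and 0.653 in SI. The rise passed the test in 3 of the 4 arms with the Trp53 allele, and the fall in both BRAF arms. In the off state of those 4 arms the R172H allele is silenced by the stop cassette, and the BRAF arms carry no such allele. Counts are by gene and do not separate wild-type from R172H transcripts. The part of the released allele in the rise was not tested.

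In COL p53 organoids Trp53 stood at 199 and 219.7 CPM off and at 406 and 412 CPM on. The on libraries lay clear of the off libraries and were the highest of all 24. The log2 fold change was 0.94 ± 0.13 (SE; adjusted p = 0.0227 by edgeR's quasi-likelihood test with Benjamini-Hochberg adjustment over all genes, as for all adjusted p-values here). Trp53 was the only one of the 4 genes called (adjusted p under 0.05), in an arm in which 0.142% of 18972 tested genes were called. The call was lost without replicate 1 of the off libraries (0.87, adjusted p = 0.230) or replicate 1 of the on libraries (0.94, adjusted p = 0.0641).

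In COL BRAFp53 organoids Trp53 stood at 162 and 140.1 CPM off and at 248 and 332 CPM on. The on libraries differed between themselves by more than those of the p53 arm, but both lay above both off libraries. The log2 fold change was 0.94 ± 0.13 (adjusted p = 0.000623), and 17.7% of all genes were called in this arm. The difference between the BRAFp53 and the p53 response in COL was 0.00 ± 0.18 on the log2 scale (adjusted p = 1.0), in a comparison that called 3.9% of genes and none of the 4.

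In the small intestine, SI p53 organoids held Trp53 at 157 and 161 CPM off and at 268 and 277 CPM on. The groups did not overlap and the fold was 1.69, but the log2 fold change of 0.76 ± 0.13 had an adjusted p of 0.194. The test called 0% of the 16856 genes in this arm, with 873 genes at an unadjusted p under 0.05, and the unadjusted p of Trp53 was 7.89e-05. Trp53 was called here by DESeq2 (0.77, adjusted p = 5.43e-05), which called 55 genes in this arm, and not by limma-voom (adjusted p = 0.0713). It was also called by edgeR without on replicate 1 or 2 of SI BRAFp53 (0.76 in both, adjusted p = 0.0309 and 0.0314). In SI BRAFp53 organoids Trp53 rose from 150.5 and 153 CPM to 254 and 194 CPM, a log2 fold change of 0.52 ± 0.13 (adjusted p = 0.0236, with 11.5% of genes called). Without replicate 1 of SI BRAFp53 on, the higher of the on libraries, the change was 0.33 and was not called (adjusted p = 0.220), and the call was also lost without off replicate 1 (0.50, adjusted p = 0.131) or off replicate 2 (0.55, adjusted p = 0.0936).

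In COL BRAF organoids, whose Trp53 alleles are both wild type, Trp53 fell from 260.3 and 254 CPM to 182 and 199.7 CPM. The log2 fold change was -0.44 ± 0.13 (adjusted p = 0.0332, with 19.9% of genes called), and it was not called when any single library of this arm was left out (-0.52 to -0.38, adjusted p of 0.0720 to 0.201). In SI BRAF organoids Trp53 fell from 268 and 278 CPM to 204 and 164 CPM, a log2 fold change of -0.62 ± 0.13 (adjusted p = 0.00351, with 31.7% of genes called). Without the on library that held Xist the fall was 0.78 on the log2 scale (adjusted p = 0.00106).

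The difference between arms was itself tested. In COL the log2 response of Trp53 was larger in BRAFp53 than in BRAF by 1.37 ± 0.18 (adjusted p = 0.0326), and in SI by 1.14 ± 0.19 (adjusted p = 0.00299; 1.31 and 0.000794 without the on library that held Xist). The COL call was lost in 4 of 12 fits that each left out 1 COL library, namely either on library or off replicate 1 of BRAF, or off replicate 2 of BRAFp53 (1.28 to 1.47, adjusted p of 0.0686 to 0.0830). Trp53 was the only one of the 4 genes called in these comparisons, which called 0.907% of all genes in COL and 8.2% in SI. In SI the excess of the BRAFp53 over the p53 response was -0.24 ± 0.19 (adjusted p = 0.574; -0.43 to -0.062 with single libraries left out), in a comparison that called 4.36% of genes and again none of the 4. The Trp53 responses of COL and SI did not differ past the threshold in any genotype, with differences of 0.14 ± 0.20 (BRAF; 0.31 without the on library that held Xist), 0.19 ± 0.20 (p53) and 0.38 ± 0.20 (BRAFp53; 0.16 to 0.59 with single libraries left out). In p53 and BRAFp53 the COL cultures were male and the SI cultures female by Xist and Ddx3y.

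**Figure D2:**
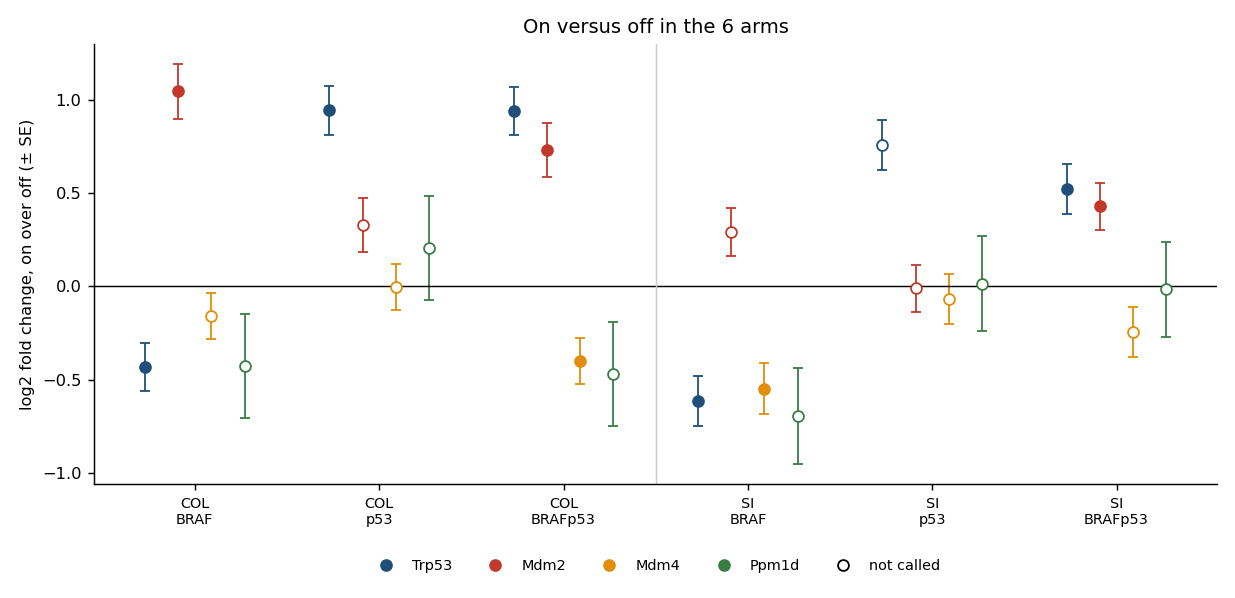
Log2 fold changes, on over off, of the 4 genes in the 6 arms, with SE from the edgeR fit of each tissue (2 libraries a group). Filled points passed an adjusted p of 0.05 and open points did not. Trp53 lies above 0 in the p53 and BRAFp53 arms and below 0 in the BRAF arms, and Mdm2 is highest in the COL arms with BRAFV600E, at 1.05 and 0.73.

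Mdm2, the ligase and p53 target, rose in 3 of the 4 arms in which BRAFV600E was induced, COL BRAF, COL BRAFp53 and SI BRAFp53. In SI BRAF its value was above 0 but did not pass the test, and in the p53 arms it was not called. The Mdm2 responses of BRAFp53 and p53 lay 0.40 ± 0.21 (COL) and 0.44 ± 0.18 (SI) apart as log2 values, and neither difference passed the test (adjusted p = 0.315 and 0.214). The summed level of the 6 epithelial markers (Epcam, Cdh1, Vil1, Krt8, Krt18 and Krt19) was also higher on than off in these 4 arms. It went from 9412 to 10119 CPM off to 22883 to 24405 on in COL BRAF, from 9723 to 10132 to 22940 to 28434 in COL BRAFp53, from 10053 to 10139 to 16842 to 19184 in SI BRAF and from 8705 to 9314 to 13267 to 13553 in SI BRAFp53. In COL p53 it was 17523 to 17564 off and 18367 to 26136 on, and in SI p53 9105 to 9282 off and 8894 to 9051 on. Krt8 and Krt19 were the largest members of the sum. Epcam did not follow it in COL BRAFp53 (566 and 492 CPM on, 555 and 579 CPM off), though Epcam was higher on in the other arms with BRAFV600E. The part of the movement of the sum in the Mdm2 result was not tested.

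In COL BRAF organoids Mdm2 stood at 28.9 and 34.0 CPM off and at 65.2 and 64.8 CPM on. The log2 fold change was 1.05 ± 0.15 (adjusted p = 0.000552), which was the largest change of any of the 4 genes in any arm, and Trp53 RNA fell in the same libraries. In COL BRAFp53 organoids Mdm2 went from 37.0 and 37.1 CPM to 58.4 and 64.4 CPM, a log2 fold change of 0.73 ± 0.15 (adjusted p = 0.00530). The 2 COL responses differed by -0.32 ± 0.21 (BRAFp53 less BRAF), which did not pass the test (adjusted p = 0.440; -0.44 to -0.19 with single libraries left out).

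In SI Mdm2 was called in 1 of the 2 arms with BRAFV600E. SI BRAF organoids held 30.1 and 30.4 CPM off and 35.1 and 41.3 CPM on, without overlap, and the log2 fold change was 0.29 ± 0.13 (adjusted p = 0.101). When the on library that held Xist was left out it was 0.41 (adjusted p = 0.0522), and without on replicate 2 it was 0.18 (adjusted p = 0.464). SI BRAFp53 organoids held 25.8 CPM in both off libraries and 34.2 and 36.9 CPM on, a log2 fold change of 0.43 ± 0.13 (adjusted p = 0.0444). That call was narrow, since it was lost in 10 of 12 fits that each left out 1 SI library, the exceptions being the on libraries of SI BRAF (0.37 to 0.50 over the 12 fits, adjusted p up to 0.276).

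The Mdm2 response to BRAFV600E alone was larger in COL than in SI by 0.71 ± 0.19 on the log2 scale (adjusted p = 0.0199). In this comparison of tissues 10.7% of genes were called, and Mdm2 was the only one of the 4. Without the SI on library that held Xist the difference was 0.60 (adjusted p = 0.0919), and 5 other libraries of the BRAF arms, all but COL off replicate 2 and SI on replicate 2, also ended the call when left out (adjusted p of 0.0503 to 0.111). In the p53 genotype 0.117% of genes differed in response between tissues and in BRAFp53 3.52%, with none of the 4 among them.

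In COL p53 organoids Mdm2 stood at 32.4 and 38.2 CPM off and at 50.5 and 39.5 CPM on, which did not overlap, with a log2 fold change of 0.33 ± 0.15 (adjusted p = 0.579; 0.12 without on replicate 1 and 0.50 without on replicate 2). In SI p53 organoids the on libraries, at 25.8 and 24.8 CPM, lay within the range of the off libraries, at 23.1 and 27.2 CPM, and the log2 fold change was -0.01 ± 0.13.

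Mdm4, the relative of Mdm2, was not higher on than off past the threshold in any arm. It fell in SI BRAF, from 56.9 and 58.4 CPM to 36.6 and 44.8 CPM, a log2 fold change of -0.55 ± 0.14 (adjusted p = 0.00731). Without the on library that held Xist, the lower of the on libraries, the fall was 0.40 and was not called (adjusted p = 0.0636). It also fell in COL BRAFp53, from 63.9 and 55.6 CPM to 45.8 and 44.7 CPM, a log2 fold change of -0.40 ± 0.12 (adjusted p = 0.0435). The latter was lost in 10 of 12 fits that left out 1 COL library, the exceptions being the on libraries of COL p53 (-0.49 to -0.30, adjusted p up to 0.222), and with RLE size factors (adjusted p = 0.0524).

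In the other arms Mdm4 was not called. COL BRAF organoids held 69.2 and 64.7 CPM off and 64.4 and 55.8 CPM on, with a log2 fold change of -0.16 ± 0.12 (adjusted p = 0.422; -0.28 and -0.076 without on replicate 1 and 2 in turn). SI BRAFp53 organoids held 51.2 and 48.7 CPM off and 39.9 and 46.5 CPM on, with a log2 fold change of -0.25 ± 0.13 (adjusted p = 0.292; -0.13 and -0.37 without on replicate 1 and 2 in turn). In the p53 arms the log2 fold changes were -0.01 ± 0.12 in COL and -0.07 ± 0.13 in SI, and on and off overlapped in both tissues. The direction of such values near 0 depended on the scaling: with RLE size factors the COL value was 0.01.

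Ppm1d, the phosphatase, was called in no arm. In SI BRAF it stood at 9.01 and 5.64 CPM off and at 4.94 and 4.33 CPM on, without overlap, with a log2 fold change of -0.70 ± 0.26 (adjusted p = 0.0569). This value passed the threshold without the filter on low counts (adjusted p = 0.0343) or without off replicate 2 of this arm (-0.99, adjusted p = 0.0232). It was -0.34 (adjusted p = 0.432) without off replicate 1, and it did not pass without the on library that held Xist (-0.79, adjusted p = 0.0903).

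In COL BRAF, Ppm1d stood at 4.84 and 6.55 CPM off and at 4.69 and 3.79 CPM on, with a log2 fold change of -0.43 ± 0.28 (adjusted p = 0.328), or -0.19 without off replicate 2. In COL BRAFp53 the off libraries held 4.74 and 7.64 CPM and the on libraries 4.19 and 4.75 CPM, which overlapped, and the log2 fold change was -0.47 ± 0.28 (adjusted p = 0.275), or -0.78 and -0.073 without off replicate 1 and 2 in turn. In the p53 arms and SI BRAFp53 the log2 fold changes were 0.21 ± 0.28 (COL p53; 0.030 to 0.35 with single libraries left out), 0.01 ± 0.25 (SI p53) and -0.02 ± 0.25 (SI BRAFp53). Its SE in these 6 comparisons was 0.25 to 0.28, against 0.12 to 0.15 for the other 3 genes.

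The regulators were then set against Trp53 within each library, as the ratio of CPM per kilobase. In the 4 arms with the Trp53 allele all 3 ratios were lower on than off on average, where the Trp53 change exceeded that of each regulator. The mean on-less-off difference of the log2 ratio was -0.97 for Mdm4 (adjusted p = 0.00463), -0.85 for Ppm1d (adjusted p = 0.00463) and -0.42 for Mdm2 (adjusted p = 0.0216), by two-sided exact permutation tests of the on and off labels within arms, adjusted over 6 tests. The direction was down in 4 of 4 arms for each ratio. All 3 ratios share Trp53 as denominator, so the tests are independent neither of each other nor of the Trp53 rise given above. For Mdm4 and Ppm1d the unadjusted p of 0.00154 is the smallest that 1296 relabellings can give.

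The Mdm2 ratio fell by different amounts in the arms. In COL p53 it went from 0.129 and 0.138 to 0.0762 and 0.0988 and in SI p53 from 0.117 and 0.135 to 0.0713 and 0.0764, both without overlap. In the BRAFp53 arms, where Mdm2 rose beside Trp53, the off range of 0.181 to 0.211 and the on range of 0.155 to 0.187 overlapped in COL, and 0.134 to 0.136 and 0.107 to 0.152 did in SI. The Mdm2 result was lost without replicate 1 of SI BRAFp53 on (-0.36, adjusted p = 0.0556, exact permutation test).

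The lowest Mdm4 ratios were those of the on libraries of COL p53, at 0.0302 and 0.0359, and of the 4 arms the Mdm4 ratio fell furthest in COL BRAFp53, from 0.108 in both off libraries to 0.0368 and 0.0505. The Ppm1d ratio did so there too, from between 0.0372 and 0.0695 to between 0.0183 and 0.0215. For both ratios the off and on libraries did not overlap in any of the 4 arms. Trp53 itself did not overlap in these arms either. The share of other genes whose ratio to Trp53 separates in this way was not computed.

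In the 2 BRAF arms the Mdm2 ratio was higher on than off, by 1.20 on the log2 scale on average. It rose from between 0.0883 and 0.106 to between 0.258 and 0.285 in COL, and from between 0.0869 and 0.0892 to between 0.137 and 0.200 in SI. The exact permutation p was 0.0556 (adjusted p = 0.0833), the smallest that 36 relabellings can give, so that this design could not pass 0.05. The Mdm4 and Ppm1d ratios changed by 0.17 and -0.01 (exact permutation p = 0.389 and 1.0). Without the on library that held Xist the Mdm2, Mdm4 and Ppm1d values were 1.34, 0.32 and 0.017 (adjusted p = 0.0667, 0.0667 and 0.833, exact permutation tests), and over all single libraries left out the Mdm4 value ranged from 0.022 to 0.32.

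**Figure D3:**
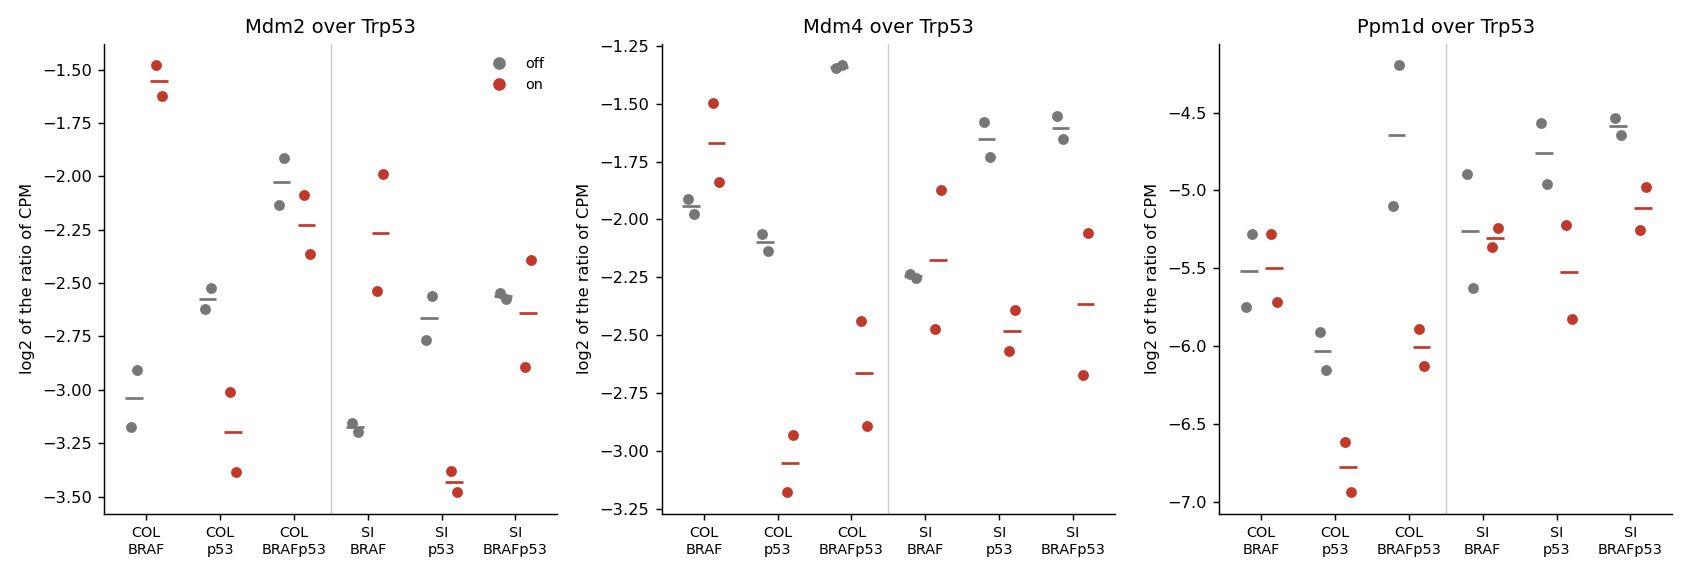
Log2 of the ratio of CPM of Mdm2, Mdm4 and Ppm1d to CPM of Trp53 in the 24 libraries (not divided by length). Points are libraries, bars are means of 2, grey is off and red is on. The Mdm2 ratio is higher on in both BRAF arms, without overlap, and the Mdm4 and Ppm1d ratios are lower on in the 4 arms with the Trp53 allele.

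The off libraries give the baseline of the loop. In SI, Trp53 off was lower in the p53 culture (157 and 161 CPM) and in the BRAFp53 culture (150.5 and 153 CPM) than in the BRAF culture (268 and 278 CPM), at 0.578 and 0.551 of its level. The log2 differences were -0.79 ± 0.13 (adjusted p = 0.00283) and -0.86 ± 0.13 (adjusted p = 0.00142). By design both lower cultures carry 1 allele silenced by the stop cassette, and they also come from other donors than the BRAF culture. By Xist and Ddx3y these donors were female and that of SI BRAF male, so that allele, donor and sex cannot be told apart in this comparison. They differed from each other by -0.07 ± 0.13, and 0.291% of genes were called between them, none of the 4.

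In COL, Trp53 off was lower in BRAFp53 than in BRAF, at 0.579 of its level (log2 difference -0.79 ± 0.13, adjusted p = 0.00290). It was also lower in BRAFp53 than in p53, with a difference of -0.49 ± 0.13 (adjusted p = 0.0179), a call that was lost without off replicate 2 of either culture (-0.44 and -0.40, adjusted p of 0.119 and 0.135). The off level of COL p53, at 0.812 of that of COL BRAF, did not pass the test (-0.30 ± 0.13, adjusted p = 0.112). The 3 COL cultures thus stood in the order BRAF, p53, BRAFp53 without overlap between any of them.

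Mdm2 did not differ between off cultures past the threshold in either tissue, with log2 differences from -0.28 to 0.22. Mdm4 off was lower in COL p53 (47.8 and 50.0 CPM) than in COL BRAF (69.2 and 64.7 CPM), with a log2 difference of -0.46 ± 0.12 (adjusted p = 0.0171), which was not called without any one of these 4 libraries (adjusted p of 0.0570 to 0.140). Ppm1d off was lower in COL p53, at 3.32 and 3.09 CPM, than in COL BRAF (-0.83 ± 0.28, adjusted p = 0.0464), and Ppm1d off was higher in COL BRAFp53 than in COL p53 (0.93 ± 0.28, adjusted p = 0.0310). The first call was lost in 10 of 12 fits without 1 COL library, the exceptions being the off libraries of COL BRAFp53 (adjusted p up to 0.287), and with limma-voom (-0.80, adjusted p = 0.0621), and the second without either off library of COL p53 or off replicate 2 of COL BRAFp53 (0.54 to 0.97, adjusted p of 0.119 to 0.274).

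These calls stand against many others. In COL, 26% of genes were called between the p53 and BRAF off libraries (2 of the 4 genes), 9.66% between BRAFp53 and BRAF (1 of 4) and 23.1% between BRAFp53 and p53 (2 of 4). In SI the shares were 6.14% (p53 less BRAF, 1 of 4) and 6.98% (BRAFp53 less BRAF, 1 of 4). Between COL and SI, with the off libraries of each culture summed to give 3 cultures against 3, 29.6% of genes were called and none of the 4. The nearest was Mdm2, higher in COL by 0.38 ± 0.14 (adjusted p = 0.0791), and Trp53 differed by 0.11 ± 0.29. By Xist and Ddx3y the COL cultures were male and the SI p53 and SI BRAFp53 cultures female, so sex was not balanced between the tissues.

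**Figure D4:**
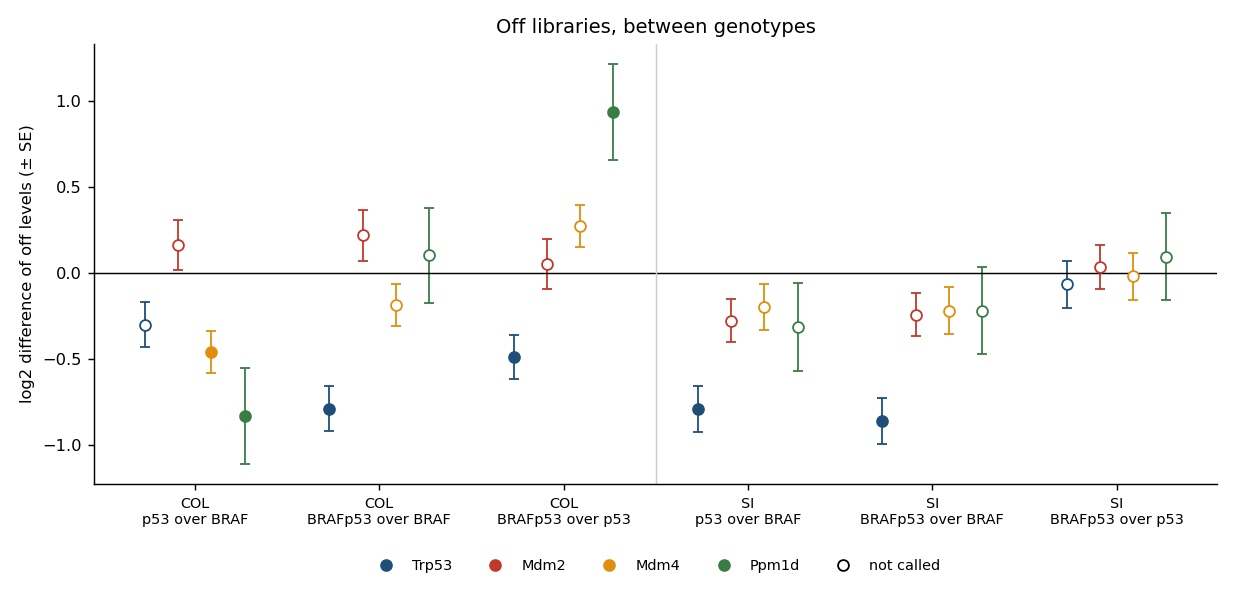
Log2 differences between the off libraries of 2 genotypes of a tissue, first over second, with SE from the edgeR fit (2 libraries a group). Filled points passed an adjusted p of 0.05. Trp53 is lower in SI p53 and in both BRAFp53 cultures than in the BRAF cultures, at -0.79, -0.79 and -0.86, while no Mdm2 point is filled.

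Ordered by group mean, Trp53 was highest in COL p53 on (409 ± 4.08 CPM, SD, n = 2) and lowest in COL BRAFp53 off (151 ± 15.7). COL p53 on lay clear of all other groups. COL BRAFp53 on, SI BRAF off and SI p53 on (290 ± 58.8, 273 ± 7.40 and 273 ± 6.10 CPM) followed, with overlap between neighbours, so that SI p53 on and SI BRAF off, which has both wild-type alleles active, could not be told apart. COL BRAF off (257 ± 4.23) came next, clear of both its neighbours, and the groups from SI BRAFp53 on down to SI BRAF on overlapped with their neighbours. The last 3 were SI p53 off, clear of SI BRAFp53 off, and the overlapping SI and COL BRAFp53 off.

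For Mdm2 the order ran from COL BRAF on (65.0 ± 0.286 CPM) and COL BRAFp53 on (61.4 ± 4.25), which did not overlap, to SI p53 off (25.1 ± 2.93). The 3 lowest groups were SI BRAFp53 off, SI p53 on and SI p53 off, each overlapping the next. Mdm4 ran from COL BRAF off (67.0 ± 3.22 CPM) to SI BRAF on (40.7 ± 5.80), and its neighbours overlapped except after COL BRAF off, SI BRAF off and COL p53 off. Ppm1d ran from SI BRAF off (7.32 ± 2.38 CPM) to COL p53 off (3.21 ± 0.162), and only that last group lay clear of its neighbour.

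Across the 24 libraries Trp53, Mdm2 and Mdm4 had different profiles. Log2 CPM was first centred by subtracting the mean of each tissue from each gene. Pearson's r of these centred values was 0.09 between Trp53 and Mdm2, -0.18 between Trp53 and Mdm4 and -0.41 between Mdm2 and Mdm4. It is a description over libraries that share cultures. The same r was taken among 8287 genes of average log2 CPM of at least 3. The profiles most like that of Mdm2 were Lpcat4 (r = 0.96), Ppl (0.94) and Krt18 (0.94), and those most like that of Mdm4 were Pank4 (0.90), Khdc4 (0.90) and Gigyf1 (0.89). Trp53 had no neighbour as close, with Commd7 (0.69), Eif2b1 (0.68) and Caml (0.67) in front. Ppm1d lay below that level and was not ranked.

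The wider p53 pathway was read from lists of genes chosen with earlier results of these data known, without a test of the lists. Of 24 p53 target genes other than Mdm2 and Ppm1d, 13 rose and 1 fell in COL BRAF, where 10.3% of all genes rose and 9.61% fell. Their median on-over-off value was 0.70 on the log2 scale, against -0.01 over all genes. The largest were Gdf15, a secreted stress cytokine (2.27, adjusted p = 0.00905), Plk2, a Polo-like kinase (1.58), Phlda3, an inhibitor of Akt (1.16), Tnfrsf10b, a death receptor (1.14), and Trp53inp1 (1.07), while Sesn1 (-1.16) fell. Cdkn1a, the gene of the cell cycle inhibitor p21 and outside the 6 largest here, was added after its values were seen and rose by 1.02 ± 0.17 (adjusted p = 0.00152).

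In COL BRAFp53 the count was again 13 up and 1 down, where 9.95% of all genes rose and 7.76% fell, with a median of 0.56 against -0.04 over all genes. Gdf15 (2.41), Cdkn1a (1.31), Tnfrsf10b (0.96), Zmat3 (0.95), Bax, a pore-forming apoptosis protein (0.91), and Plk2 (0.90) led. Of the 13 that rose in each arm, 10 were the same genes, while Polk, Trp53inp1 and Sesn2 passed the test in COL BRAF and not in COL BRAFp53, and Btg2, Tigar and Aen the other way round. Trp53 RNA fell in one arm and rose in the other. The arms share no library.

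In SI BRAF 6 targets rose and 2 fell, where 17.5% of all genes rose and 14.2% fell, with a median of -0.11 against -0.06. Cdkn1a (1.65 ± 0.14, adjusted p = 1.85e-06), the death receptor Fas (0.97), Pmaip1, which encodes Noxa (0.75), and Perp (0.63) rose, and Eda2r (-2.15) and Phlda3 (-0.96) fell. The counts were 6 up and 3 down when the on library that held Xist was left out. In SI BRAFp53 4 rose, namely Plk2 (1.31), Cdkn1a (1.12), Perp (0.59) and Tnfrsf10b (0.46), and Sesn1 (-0.58) fell, where 6.98% of all genes rose and 4.53% fell, with a median of 0.14 against -0.03. In the p53 arms 0 of 24 targets were called in either tissue, with medians of 0.11 in COL and -0.08 in SI. With 0.142% and 0% of all genes called in these arms, a count of 0 is at the background. At an unadjusted p under 0.05 there were 1583 and 873 genes in all.

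**Figure D5:**
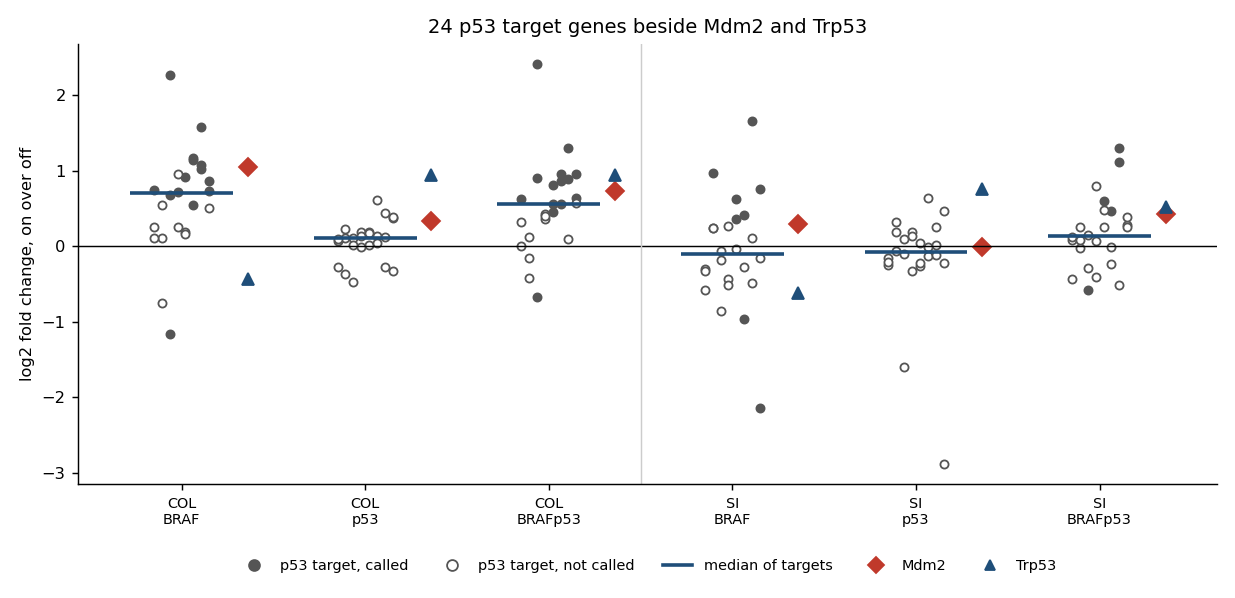
Log2 fold changes, on over off, of 24 p53 target genes (dots; filled where called), their median (blue line), Mdm2 (red diamond) and Trp53 (blue triangle) in the 6 arms. The median lies at 0.70 in COL BRAF and 0.56 in COL BRAFp53 and between -0.11 and 0.14 in the other arms, and Trp53 lies below 0 only in the BRAF arms.

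Of 14 other ubiquitin ligases and deubiquitinases that act on p53 or Mdm2, 2 rose and 4 fell in COL BRAF, 3 fell in COL BRAFp53, 5 fell in SI BRAF and 1 fell in SI BRAFp53. Over all genes 10.3% rose and 9.61% fell in COL BRAF, and 7.76%, 14.2% and 4.53% fell in the other 3 arms, in that order. Usp2, a deubiquitinase of Mdm2, fell in 3 arms, with log2 fold changes of -1.67 ± 0.29 in COL BRAFp53 (adjusted p = 0.00240), -0.83 ± 0.16 in SI BRAF and -1.27 ± 0.15 in SI BRAFp53. Otud5, which deubiquitinates p53, rose in COL BRAF (0.68), where Usp10, another deubiquitinase of p53, fell (-0.51). Cop1, a ligase of p53, rose there too (0.47), and Rfwd3, a ligase of the damage response, fell in COL BRAF, COL BRAFp53 and SI BRAF, at -0.42 in each. Trim24, a ligase of p53, fell in SI BRAF (-0.92) and COL BRAFp53 (-0.50), and Trim28, a cofactor of Mdm2, in SI BRAF (-0.98) and COL BRAF (-0.38). Rchy1, the p53 ligase Pirh2, fell in COL BRAF (-0.40), and Cul4a, a cullin of ubiquitin ligases, in SI BRAF (-0.35). In SI BRAF 6 of the 14 fell when the on library that held Xist was left out.

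Of 16 kinases and Mdm2 inhibitors upstream of p53, 2 rose and 3 fell in COL BRAF, 1 rose and 5 fell in COL BRAFp53, 10 fell in SI BRAF and 1 fell in SI BRAFp53. Over all genes 10.3% rose and 9.61% fell in COL BRAF, 9.95% rose and 7.76% fell in COL BRAFp53, and 14.2% and 4.53% fell in the SI arms. The checkpoint kinases Chek1 and Chek2 and the damage kinase Atm fell in COL BRAF (-1.35, -0.89 and -0.60), in COL BRAFp53 (-0.85, -0.61 and -0.81) and in SI BRAF (-0.97, -1.07 and -1.16). In SI BRAF the damage kinases Atr (-0.92) and Prkdc (-0.76) and Npm1 (-0.66), which encodes a nucleolar partner of Arf, fell as well, Atr also in COL BRAFp53 (-0.72). In SI BRAF so did Rpl5, Rpl11 and Rpl23 (-0.60, -0.59 and -0.60), which encode ribosomal proteins that bind Mdm2 and are named after their values were seen. The count in SI BRAF was again 10 when the on library that held Xist was left out. Akt1, a survival kinase that phosphorylates Mdm2, rose in COL BRAF (0.68) and COL BRAFp53 (0.51), Csnk1a1, a casein kinase that binds Mdm4, rose in COL BRAF (0.46), and Hipk2, a kinase of p53, fell in COL BRAFp53 (-0.65) and SI BRAFp53 (-0.51). Cdkn2a, whose locus encodes Arf, was called in no arm. Its log2 fold changes with BRAFV600E were 0.42 ± 0.45 (COL BRAF), 0.73 ± 0.37 (COL BRAFp53), 1.35 ± 1.59 (SI BRAF) and 2.31 ± 1.75 (SI BRAFp53). With errors this wide they do not settle whether Cdkn2a changed.

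Of 12 p53 relatives and cofactors, Trp73 was too low to be tested in either tissue and Trp63 in SI. In COL BRAF 3 of 11 tested rose, namely Ppp1r13l (1.30), which encodes the p53 inhibitor iASPP, Trp53bp2 (0.73) and Ppp1r13b (0.63), and 3 fell, where 10.3% of all genes rose and 9.61% fell. In COL BRAFp53 2 fell, in SI BRAF 3 of 10 fell and in SI BRAFp53 Ppp1r13b (0.62) rose. Over all genes 7.76% fell in COL BRAFp53, 14.2% fell in SI BRAF and 6.98% rose in SI BRAFp53. With the on library that held Xist left out, 1 rose and 2 fell in SI BRAF. The cofactor Jmy fell in COL BRAF (-0.54), COL BRAFp53 (-0.76) and SI BRAF (-0.68), as did Trp53bp1 (-0.52, -0.46 and -0.72), which encodes the damage response protein 53BP1. Hmgb1, a chromatin protein that binds p53, fell in both BRAF arms (-0.60 in COL and -0.65 in SI). In the p53 arms none of the genes of these 3 lists was called, again at the background of 0.142% and 0%.

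Of 10 proliferation genes, 7 fell in COL BRAF (median -0.74), 2 in COL BRAFp53 (-0.29), 6 in SI BRAF (-0.72; 9 without the on library that held Xist) and 0 in the other arms, where 9.61%, 7.76% and 14.2% of all genes fell in the first 3 arms. In COL BRAF the largest were Tyms (-0.84), Cdk1 (-0.81), Pcna (-0.76), Top2a (-0.75), Ccnb1 (-0.74) and Mcm2 (-0.68), which serve DNA synthesis and mitosis. In COL BRAFp53 they were Top2a (-0.63) and Mki67 (-0.55), and in SI BRAF Mcm6 (-1.28), Tyms (-0.86), Ccna2 (-0.80), Top2a (-0.79), Cdk1 (-0.79) and Mki67 (-0.64). Their summed level was 1520 to 1577 CPM off and 989 to 994 CPM on in COL BRAF, and 1484 to 1508 CPM off and 762 to 1188 CPM on in SI BRAF, the arms in which Trp53 fell. It was also lower on (1235 to 1551 CPM) than off (1661 to 1966 CPM), without overlap, in COL BRAFp53, where Trp53 rose. The sum was lower on (1394 to 1477 CPM) than off (1502 to 1539 CPM) in COL p53 as well. In SI p53 it was higher on (1719 to 1823 CPM) than off (1610 to 1669 CPM), and in SI BRAFp53 on and off overlapped. The part of these genes in the Trp53 result was not tested, and in bulk samples fewer cells of a type and less RNA per cell cannot be told apart.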

How the data were processed

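RNA was sequenced from 24 mouse organoid libraries. As the study's methods and the submitters' processing notes state, the authors trimmed paired-end reads with Trimmomatic 0.36, aligned them to mm10 and counted them by gene with STAR 2.5.2b. They deposited these counts unscaled, 1 column a library. Annotation release and strand setting are not given in the sources used here, so reads from opposite strands of a locus cannot be told apart.

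Of 45706 identifiers, 45143 matched GENCODE M21. Counts were filtered with filterByExpr, scaled by TMM and fitted per tissue with the quasi-likelihood test of edgeR 4.0.16 (R 4.3.3), 1 mean per genotype and state over 12 libraries. Responses were compared between tissues in 1 fit of 24 libraries. Adjusted p-values are Benjamini-Hochberg over all genes tested, with a threshold of 0.05. Levels are CPM scaled by TMM over all 24 libraries, and values per kilobase use merged exons. Ratios were tested by exact permutation. The scripts were tested on simulated data. The members, lists and tests were chosen with earlier results of these data known. Genes of a list are named where they passed the threshold, up to 6 per list and arm by size.

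Alternatives were RLE size factors, no filter, DESeq2 1.42.0, limma-voom (limma 3.58.1), a replicate block, and leaving out each library.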

Additional observations from a re-analysis of the deposited data

Results flagged for a closer look

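The Trp53 responses differed between genotypes by the test of the difference. In COL the log2 response of Trp53 in BRAFp53 was larger than that in BRAF by 1.37 ± 0.18 (adjusted p = 0.0326), and in SI by 1.14 ± 0.19 (adjusted p = 0.00299), with Trp53 higher on in both BRAFp53 arms and lower on in both BRAF arms. The BRAFp53 cultures carry a Trp53 allele released from its stop cassette in the on state, and the BRAF cultures do not. The Mdm2 response to BRAFV600E alone differed between tissues, being larger in COL by 0.71 ± 0.19 (adjusted p = 0.0199, edgeR's quasi-likelihood test). Dose, day and culture differ between the tissues as well. These 3 differences rest on 2 libraries per group. The call of the COL Trp53 difference was lost in 4 of 12 fits without 1 library (adjusted p up to 0.0830) and with the replicate block (adjusted p = 0.0650). That of the Mdm2 difference was lost without any of 6 of the 8 BRAF libraries (0.60 to 0.73, adjusted p of 0.0503 to 0.111).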

How the results depend on the processing

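Over the fits with DESeq2, limma-voom, RLE size factors, the replicate block or without the low-count filter, 105 on-versus-off values of the 4 genes kept their direction and their side of the threshold, 7 were no longer called, 4 were newly called and 4 turned. The exceptions are given here as log2 fold changes. With RLE size factors Mdm4 in COL BRAFp53 (-0.39) was no longer called and the sign of Mdm4 in COL p53 (0.013) and Ppm1d in SI BRAFp53 (0.0020) turned, as with DESeq2 (0.013 and 0.0020). Without the filter Mdm4 in COL BRAFp53 (-0.39) and Mdm2 in SI BRAFp53 (0.44) were lost, Ppm1d in SI BRAF (-0.70) and Trp53 in SI p53 (0.77) were gained, the latter with DESeq2 too (0.77), and the COL Trp53 difference of BRAFp53 less p53 turned (0.016). Counts of called genes that moved by more than 1.5 times did so without the filter or with DESeq2, in that order: SI p53 155 and 55 (0 as reported), COL p53 569 and 324 (27), COL BRAFp53 less BRAF response 1312 and 1366 (172), COL BRAFp53 less p53 response 1855 and 1710 (740), SI BRAFp53 less p53 response 1430 and 1297 (735), SI BRAFp53 less p53 off 289 and 146 (49), p53 response between tissues 488 and 155 (23), BRAFp53 response between tissues 1548 and 1554 (693). They did so with DESeq2 alone for the SI BRAFp53 less BRAF response (2089 against 1383) and without the filter alone for COL BRAFp53 less BRAF off (2759 against 1833), SI p53 less BRAF off (1676 against 1035) and SI BRAFp53 less BRAF off (1799 against 1177). The cause of these differences was not tested.

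Libraries share replicate numbers in the labels, but same-numbered libraries did not deviate together (r of -0.04 to 0.06 per arm), so the numbers mark no known pairing. With the replicate block Trp53 in COL BRAF (-0.44, adjusted p = 0.0689) and COL p53 (0.94), Mdm4 in COL BRAFp53 (-0.40), Mdm2 in SI BRAFp53 (0.43) and the mean Mdm2 ratio (-0.42) were no longer called, Ppm1d in SI BRAF (-0.67) was, and the call of the COL Trp53 difference of BRAFp53 less BRAF was lost (1.37). The block left 15 called genes in COL p53, 17 in the COL BRAFp53 less BRAF response and 478 in COL BRAFp53 less p53.

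With 1 library left out, the lone library of a group is assumed to vary like the others. The ranges of the results that changed were -0.52 to -0.38 (Trp53, COL BRAF), 0.87 to 1.01 (Trp53, COL p53), 0.33 to 0.70 (Trp53, SI BRAFp53), 0.73 to 0.79 (Trp53, SI p53), 0.37 to 0.50 (Mdm2, SI BRAFp53), -0.11 to 0.10 (Mdm2, SI p53), -0.49 to -0.30 (Mdm4, COL BRAFp53), -0.14 to 0.11 (Mdm4, COL p53), -0.69 to -0.40 (Mdm4, SI BRAF), -0.19 to 0.051 (Mdm4, SI p53), -0.99 to -0.34 (Ppm1d, SI BRAF), -0.28 to 0.26 (Ppm1d, SI p53) and -0.059 to 0.037 (Ppm1d, SI BRAFp53). Differences near 0 also turned, namely the COL Trp53 difference of BRAFp53 less p53 (-0.21 to 0.20), the Trp53 difference of COL less SI in BRAF (-0.0076 to 0.31) and between off cultures (-0.10 to 0.42), and the Ppm1d ratio in the BRAF arms (-0.20 to 0.17). The mean Mdm2 ratio in the arms with the Trp53 allele ranged from -0.48 to -0.36. Ppm1d, at 148 to 553 counts, had the least precision.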
